A study of Mus musculus with 15 samples.

Results

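The intraflagellar transport (IFT) and Bardet-Biedl syndrome (BBS) genes described here were the 22 genes whose symbol begins with Ift or Bbs followed by a digit, leaving out symbols that end in os or ps, of 32285 genes counted in each library. By known role they were 11 subunits of the IFT-B complex (Ift20, Ift22, Ift27, Ift46, Ift52, Ift57, Ift74, Ift80, Ift81, Ift88 and Ift172), 3 subunits of the IFT-A complex (Ift43, Ift122 and Ift140), 6 subunits of the BBSome (Bbs1, Bbs2, Bbs4, Bbs5, Bbs7 and Bbs9) and the chaperonin-like genes Bbs10 and Bbs12. Their transcripts were measured by droplet-based single-cell RNA-seq of testes from DBA/2J mice, with 15 libraries in 5 groups of 3, each library from 1 testis of 1 mouse. Mice of group T were injected intraperitoneally with JQ1, a small molecule that occupies the bromodomains of BRDT, the testis-specific member of its family, and of related proteins, at 50 mg/kg once a day over 3 wk, and their testes were collected directly afterwards, at 10 wk of age. Mice of group R had the same course and were collected 6 wk after its end, at 16 wk of age. VC-T and VC-R mice were given vehicle on the matching schedules and had the matching ages, and UC mice were untreated and 15 wk old, so in T against UC the treatment and the younger age cannot be told apart.

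Intraflagellar transport carries building blocks along the microtubules of cilia and flagella on trains made of 2 complexes. IFT-B is tied to transport toward the tip by a kinesin, and IFT-A to the return by a dynein. The BBSome rides on these trains and moves membrane proteins into and out of the cilium, and the chaperonin-like BBS proteins help it to assemble. In the testis the sperm flagellum is built in round and elongating spermatids, and mice that lack IFT subunits in male germ cells are known to form short or malformed flagella.

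After filtering, 72362 cells remained, between 2430 and 12744 per library, and each library held 9673587 to 98724982 unique molecular identifiers (UMIs, 1 per captured transcript). Clusters named from marker genes put 3209 cells in a spermatogonia-like class, 15849 in a spermatocyte-like, 22906 in a spermatid-like and 22963 in a spermatozoa-like class, and the 22 genes were kept out of the genes used for clustering. Of the spermatogonia-like cells, 1089 came from cluster 23, whose leading genes included Stra8, Rad51ap2, Meiob and Hfm1. With coarser clustering (resolution 0.8), a cluster of 1086 cells led by Rad51ap2, Meiob, Hfm1 and Prdm9 was named spermatocyte-like. The name of these cells thus depended on the clustering. At most 46 cell barcodes were shared by any pair of libraries. The libraries of group T held at most 3 spermatozoa-like cells each, so that class was compared only between R and its controls. The library VC-T 1 stood apart from VC-T 2 and VC-T 3, since it too held no spermatozoa-like cell. It was left out of the expression tests, as the authors did, with its values given beside the results. Whether this library was affected or exchanged cannot be told apart from the files, so each T against VC-T value rests on 2 vehicle libraries.

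The promoter sequences of 19 of the 22 genes (250 bases before to 50 bases after the start of the RefSeq transcript, build GRCm38.p6) were searched on both strands for GTTGCC, a core of the site bound by RFX factors, which are known regulators of ciliary genes. It was found in 8 of 19 (42.1%), against 3821 of 27025 genes (14.1%) and 4111 of 32851 promoters (12.5%) in the whole table. The longer X-box core CCATGGNAA was found in 0 of 19 and in 639 of all promoters (1.95%), and no sequence was given for Ift80, Ift81 and Ift122. The matches of the genes called in spermatid-like cells of T are shown because their levels are followed below, each with the motif in capitals and with 9 bases on either side where the window allowed, read on the gene's strand. In Ift172 (chr5:31291100-31291123, minus strand) the motif began at the transcript start. In Bbs5 (chr2:69647204-69647220, plus strand) it lay 42 bases after the start and near the end of the window. In Ift88 (chr14:57424083-57424106, plus strand) and Ift140 (chr17:25015968-25015991, plus strand) it lay on the other strand, 21 bases after and 109 bases before the start, so its reverse complement is capitalised.
Ift172: cgcactcacGTTGCCtgtgcgtca
Bbs5: agccggcgcGTTGCCtt
Ift88: gtcgcgcctGGCAACggctgggcg
Ift140: tgttgtgacGGCAACctcgcgccc
Bbs1, Bbs7, Ift27 and Ift57 held the motif as well. A match is a run of letters and was not tested as a binding site.

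In untreated testes the IFT and BBS transcripts belonged mainly to the meiotic and early haploid cells. Of the 22 genes, 13 had their highest level in spermatocyte-like cells, 4 in spermatid-like cells (Ift57, Ift81, Ift43 and Bbs5), 4 in spermatogonia-like cells (Ift80, Ift88, Bbs2 and Bbs12) and 1, Ift172, in spermatozoa-like cells. Levels per class are in CPM, the UMIs of a gene per 1000000 UMIs of all cells of the class in a library. They are scaled by the trimmed mean of M values (TMM) over the libraries of 1 class, not between classes. They are a description without a test, because the classes were defined from the same cells, and since 3′-tagged levels were not scaled by gene length, only levels of the same gene are compared.

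**Figure D1:**
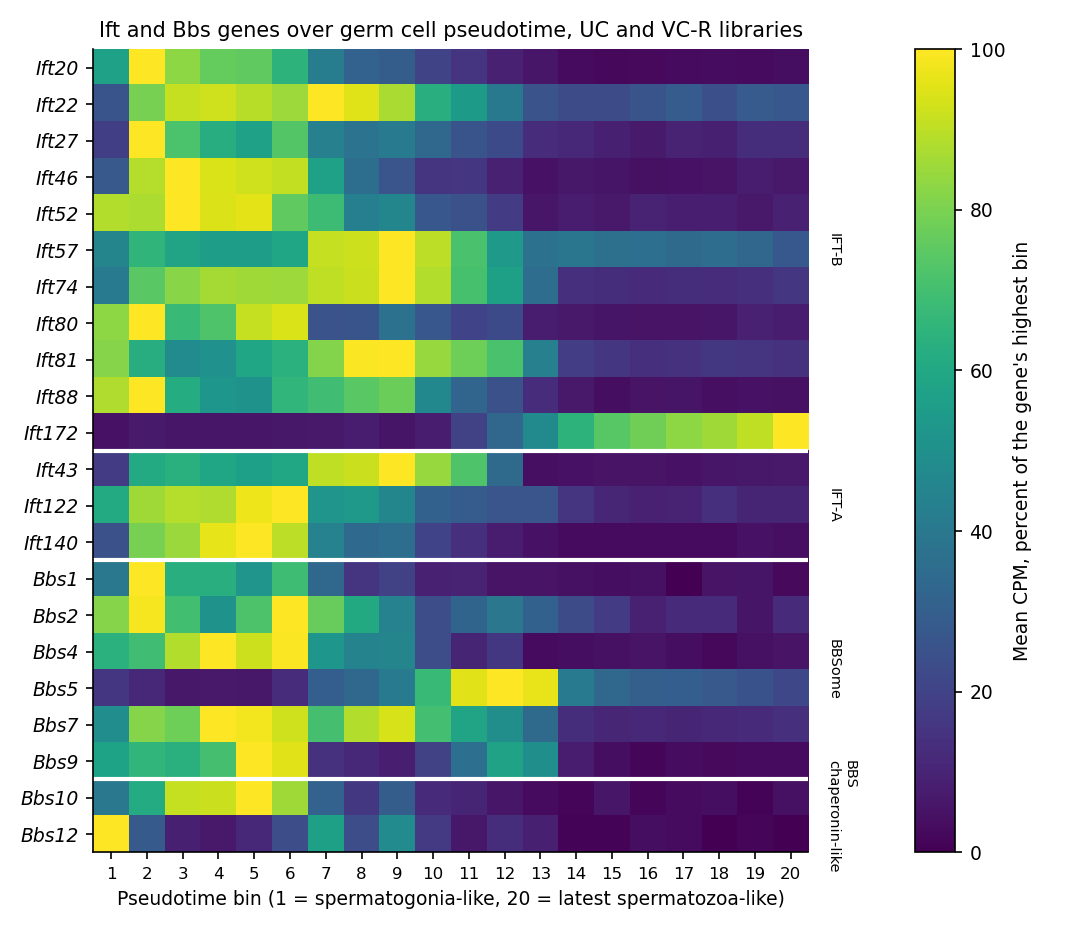
Heat map of the mean level of each of the 22 genes over 20 bins of pseudotime (x axis, from spermatogonia-like to spermatozoa-like cells) in the UC and VC-R libraries, scaled to each gene's highest bin, with genes (y axis) grouped by role. In 15 genes the highest bin lies among bins 1 to 6, in 6 among bins 7 to 13 and in 1, Ift172, among bins 14 to 20.

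The germ cells were also ordered along pseudotime, an order computed from their expression, and cut into 20 bins. CPM per bin are UMIs per 1000000 UMIs of the cells of a library in that bin, without TMM scaling. Over the 6 UC and VC-R libraries, 20 of the 22 genes were lower in the last bins (18 to 20) than in the spermatocyte bins (3 to 5), with a median fold of 10.9 and a range from 1.77 to 31.3. The other 2 of the 22 genes were higher. Since levels are shares of all UMIs in a bin, a fall can also reflect other transcripts, and these folds were not compared with those of all genes. Ift172, whose product is the largest IFT-B subunit, went from 111.5 CPM in bins 3 to 5 to 1693 CPM in bins 18 to 20, 15.2-fold higher, and Bbs5, a BBSome subunit that binds phospholipids, went from 14.2 to 53.8 CPM, 3.79-fold higher. In the heat map of pseudotime, Ift172 alone is at its brightest on the right, and Bbs5 peaks in bin 12 at 215.4 ± 22.0 CPM (SD, n = 6).

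Among IFT-B genes, the levels most concentrated in 1 class were those of Ift46 and Ift172. Ift46, which is needed for the stability of IFT-B, had 67.5% of its summed class levels in spermatocyte-like cells (60.7 to 77.4% over the 3 UC libraries), with 186 ± 24.0 CPM (SD, n = 3) there against 34.6 ± 7.48 in spermatid-like and 12.4 ± 2.94 in spermatozoa-like cells. Ift172 had 66.8% of its summed levels in spermatozoa-like cells (65.1 to 68.1%). Its means were 100.3 ± 35.5 CPM in spermatogonia-like and 165 ± 77.0 in spermatocyte-like cells, which overlapped, 442 ± 68.0 in spermatid-like and 1426 ± 121 in spermatozoa-like cells. The counts were not corrected for ambient RNA: the late transcript Prm1 was also counted in UC at 3043 to 4036 CPM in spermatogonia-like and 1486 to 8478 in spermatocyte-like cells, against 59831 to 69654 in spermatozoa-like cells. How much of the Ift172 level in the earlier classes is ambient RNA was not tested. Along pseudotime, its mean over UC and VC-R libraries was 149.3 ± 31.3 CPM (SD, n = 6) in bin 10, 607.5 ± 27.6 in bin 12, 869.8 ± 44.6 in bin 13 and 1839 ± 133 in bin 20.

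Among IFT-A genes, Ift140 had 65.7% of its summed levels in spermatocyte-like cells, with 168.4 ± 19.8 CPM against 35.7 ± 2.31 in spermatid-like cells. Of the BBSome genes, Bbs5 was the most concentrated, with 60.2% in spermatid-like cells (55.4 to 65.9%) and 188.2 ± 22.2 CPM there against 22.4 ± 9.31 in spermatocyte-like cells. Bbs9, which forms part of the BBSome core, had 2 maxima along pseudotime. It had 159.8 ± 14.9 CPM in bin 5, then 13.2 ± 4.76 in bin 9, 92.2 ± 25.1 in bin 12 and 11.9 ± 5.93 in bin 14, so that the spermatid-like class held cells with low and cells with high Bbs9 levels. Of the chaperonin-like genes, Bbs12 had 79.5% of its summed levels in spermatogonia-like cells, at 18.5 ± 2.21 CPM, and Bbs10 had 64.7% in spermatocyte-like cells, at 20.7 ± 2.86 CPM. Somatic cells were few, so levels in them are given over libraries of all groups that held at least 10 cells. Ift20, an IFT-B subunit that also acts at the Golgi, had a median of 500.7 CPM in Leydig-like cells of 10 libraries (185.9 to 758.4), and the UC libraries among them were the lowest, with 185.9 and 236.4 CPM from 10 and 11 UMIs. Ift172 had a median of 576.1 CPM (377.1 to 700.2) in Sertoli-like cells of 6 libraries, the lowest being UC 3, with 8 UMIs. How much of these somatic levels is ambient RNA from germ cells was not tested.

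Directly after JQ1, 3 of the 22 genes had fallen in spermatid-like cells of T against UC (Ift172, Bbs9 and Bbs5) and 9 had risen (Ift22, Ift46, Ift52, Ift74, Ift80, Ift88, Ift43, Ift122 and Ift140). A gene was called at an adjusted p under 0.05 in edgeR's quasi-likelihood test on UMIs summed per library, with Benjamini-Hochberg adjustment over all genes tested, and all adjusted p below come from this test. Of all genes tested, 24.1% were called higher and 28.2% lower in this comparison, so that the 9 higher of 22 stood above that share and the 3 lower of 22 below it. Ift172 and Bbs9 also changed by over 1 on the log2 scale, as did 15.1% of all genes in that direction. By role, 6 of 11 IFT-B and 3 of 3 IFT-A genes rose, 1 IFT-B gene and 2 of 6 BBSome genes fell, and neither chaperonin-like gene was called. All 22 genes passed the filter on low counts here, and their median log2 fold change was 0.27, against 0.05 over all genes tested.

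Ift172 had 96.1, 73.5 and 60.4 CPM in spermatid-like cells of the 3 T libraries, against 431.2, 515.4 and 380.9 in UC. The T values all lay below the UC values, and the log2 fold change was -2.49 ± 0.14 (SE, adjusted p = 5.71e-09), 5.61-fold lower. Bbs9 had 26.3, 22.7 and 19.9 CPM in T and 50.1, 58.7 and 52.5 in UC, a log2 fold change of -1.19 ± 0.12 (adjusted p = 1.98e-06). Bbs5 had 99.8, 99.5 and 96.8 CPM in T and 188.5, 210.2 and 165.9 in UC, a log2 fold change of -0.92 ± 0.09 (adjusted p = 9.91e-07). For these genes no T library reached the lowest UC library, but they are the genes called lower in the same libraries.

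The genes with the largest rise were IFT-B subunits. Ift52, a core subunit, had 34.8, 37.7 and 41.1 CPM in T against 23.4, 23.2 and 22.0 in UC, a log2 fold change of 0.72 ± 0.12 (adjusted p = 1.83e-04). Ift46 had 55.4, 57.1 and 58.2 CPM in T against 34.5, 27.1 and 42.1 in UC (0.70 ± 0.13, adjusted p = 5.43e-04). Ift88, the gene of the Polaris protein, had 95.4, 97.3 and 107.4 CPM in T against 63.6, 63.4 and 78.4 in UC (0.53 ± 0.10, adjusted p = 5.04e-04). The groups did not overlap in any of the 3 genes. The 3 were picked from the same libraries by call and fold change, so this is no further support. Ift74, a coiled-coil partner of Ift81, had a log2 fold change of 0.32 ± 0.06 (adjusted p = 6.16e-04), and Ift140 one of 0.43 ± 0.11 (adjusted p = 0.0041). The other 4 had log2 fold changes from 0.21 in Ift22 to 0.41 in Ift80. Without TMM, with library size alone, the median of all genes moved from 0.05 to 0.33, and 15 of the 22 genes were then called higher and 3 lower, against 45.6% and 20.7% of all genes.

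**Figure D2:**
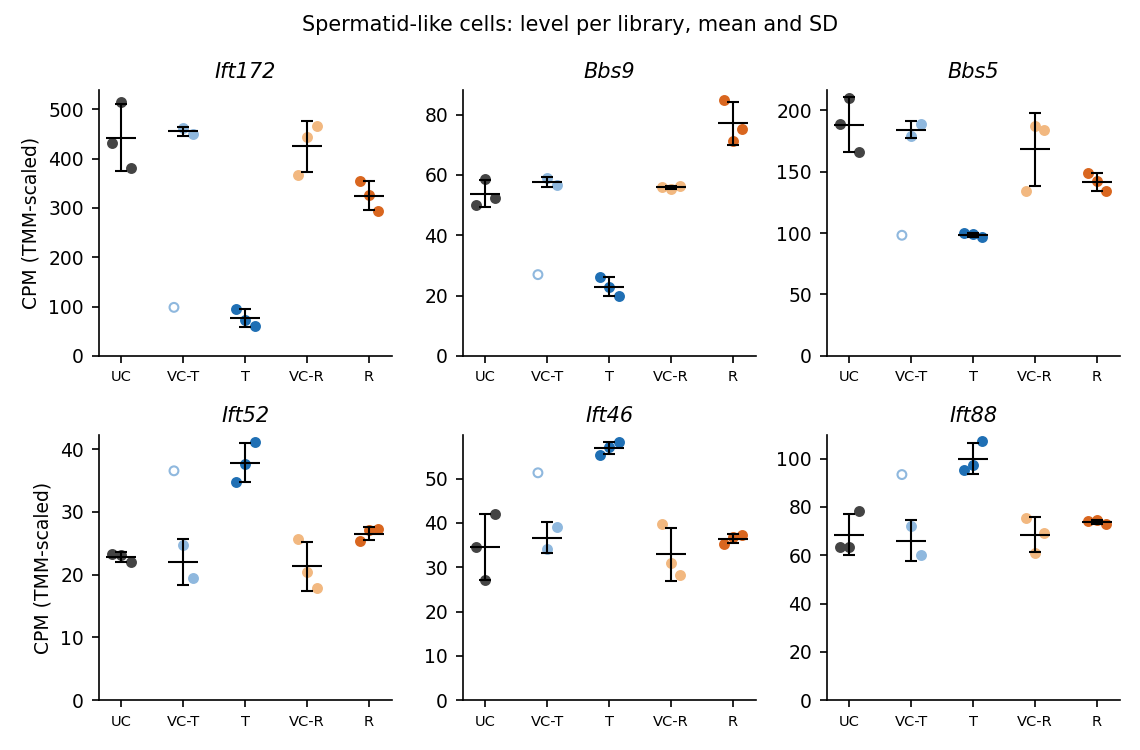
Level in spermatid-like cells (y axis, CPM) of Ift172, Bbs9, Bbs5, Ift52, Ift46 and Ift88 in each library of the 5 groups (x axis), with points for libraries, the mean and the SD over libraries, and an open circle for VC-T 1, which is not in the mean. Ift172 lies at 60.4 to 96.1 CPM in T and at 380.9 to 515.4 in UC, while Ift52 lies at 34.8 to 41.1 in T and at 22.0 to 23.4 in UC.

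**Figure D3:**
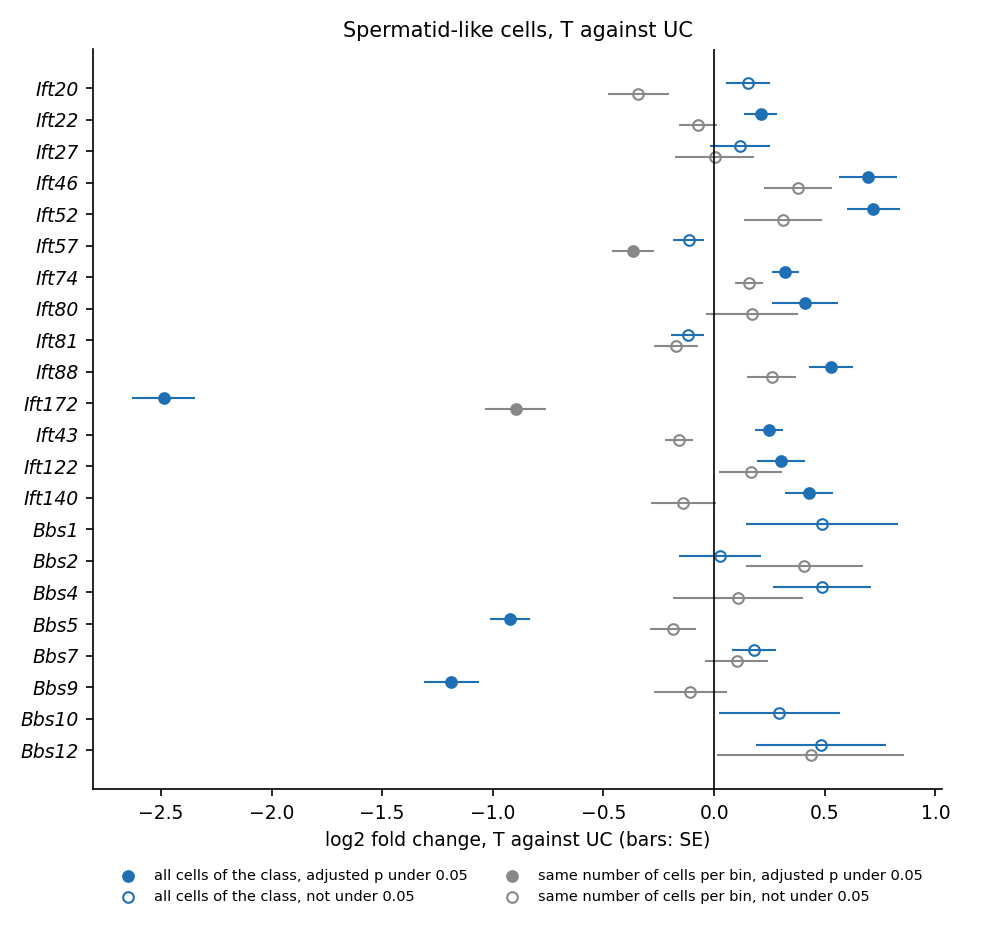
Log2 fold change of T against UC in spermatid-like cells (x axis) of the 22 genes (y axis) with standard errors, over all cells of the class and over cells matched on pseudotime, with filled symbols for an adjusted p under 0.05. Ift172 lies at -2.49 over all cells and at -0.90 after matching, and Bbs9 at -1.19 and at -0.11.

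The spermatid-like class was made up differently in T and UC, with 83.2% of its cells in clusters 3, 9 and 10 in T and 40.9% in UC. Of the cells in the spermatid bins (7 to 13), 9.79 to 14.2% lay in the last of them (11 to 13) in the T libraries, against 50.7 to 55.5% in UC. The late spermatid transcript Prm1, a protamine that packs sperm DNA, had 107.2 to 444.7 CPM in spermatid-like cells of T against 11462 to 14988 in UC. When every library was thinned to the same number of cells in each pseudotime bin (365 spermatid-like cells per library), 0 of the 20 genes tested were called higher and 2 lower, against 6.78% and 10.4% of all genes, so the share of the 22 genes called lower was near that of all genes. Ift172 was still lower, with a log2 fold change of -0.90 (adjusted p = 9.37e-05), and the other was Ift57, an IFT-B subunit, at -0.37. Bbs9 was then at -0.11 (adjusted p = 0.702) and Bbs5 at -0.18 (adjusted p = 0.239), while the values of Ift22, Ift43 and Ift140 turned negative and were not called. The late spermatid transcripts Tnp1, Tnp2, Prm1 and Prm2 were still called lower after matching (4 of 4). The matched cells thus still differed in late transcripts, and the part of this in the Ift172 value was not tested.

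Within single bins, in levels without TMM scaling, each T library lay below every UC library in Ift172 in bins 1 to 5, 7 and 9 to 13. The groups overlapped in bins 6 and 8. The lower level in T was thus not limited to late bins. In bin 2 they were 78, 90 and 87 CPM against 115, 142 and 117, and in bin 10 they were 95, 98 and 97 against 202, 120 and 145. In bin 11 they were 263, 290 and 154 CPM against 467, 314 and 343, and in bin 12 they were 423, 337 and 127 against 603, 636 and 558. In bin 13, which only 2 T libraries filled with at least 10 cells, they were 259 and 188 CPM against 824, 945 and 831. The T values rest on few transcripts, with 134, 31 and 9 UMIs of Ift172 in bin 12 and 14 and 3 in bin 13. In bin 8, among the earliest spermatids, T had 62, 44 and 45 CPM and UC had 400, 62 and 54. UC 1 stood apart there, and it also had the highest Prm1 level of the UC libraries in spermatocyte-like cells, 8478 CPM against a lowest of 1486. Without UC 1, 6 genes were called higher and 3 lower in spermatid-like cells, against 2542 and 3621 of the 14118 genes tested.

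**Figure D4:**
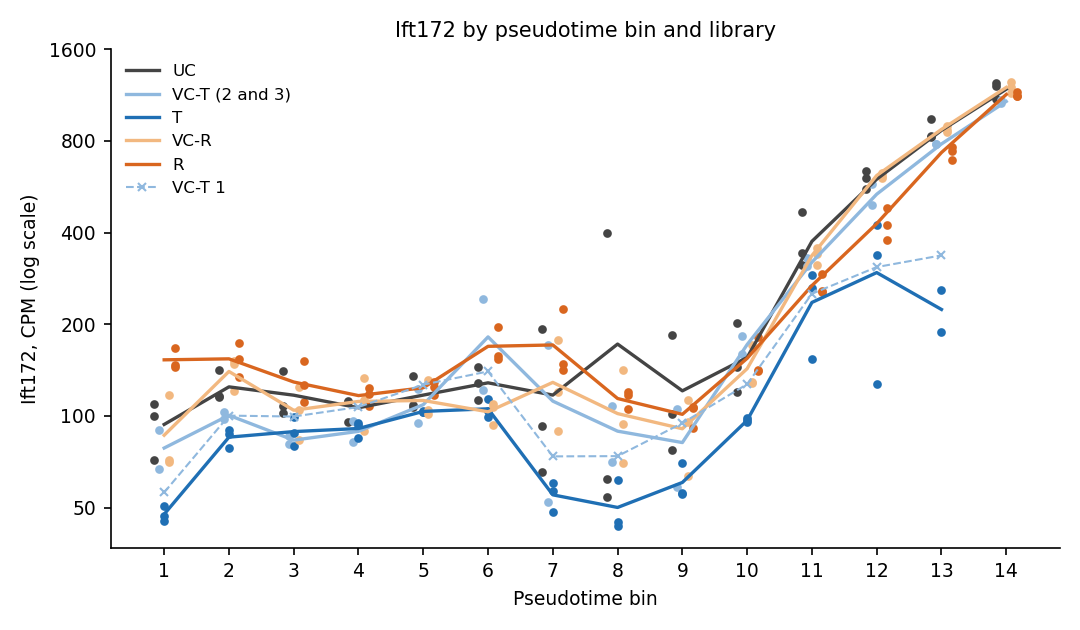
Level of Ift172 (y axis, CPM without TMM scaling, on a log scale) by pseudotime bin (x axis, bins 1 to 14) in each library with at least 10 cells in the bin, with points for libraries coloured by group, solid lines for group means and a dashed line for VC-T 1. In bin 12 the T libraries lie at 127 to 423 CPM and the UC libraries at 558 to 636.

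Against the vehicle group of the same age, VC-T 2 and VC-T 3, Ift172, Bbs9 and Bbs5 fell in spermatid-like cells of T, and 7 genes rose (Ift22, Ift46, Ift52, Ift74, Ift88, Ift43 and Ift140). Both comparisons use the same T libraries, so the calls are not independent of those above. Of all genes tested, 17% were called higher, 26% lower and 17.4% lower by over 1 on the log2 scale, which Ift172 and Bbs9 passed. Ift172 had 462.4 and 449.5 CPM in VC-T 2 and VC-T 3, and its log2 fold change was -2.59 ± 0.16 (adjusted p = 1.69e-06). Bbs9 followed at -1.34 ± 0.14 (adjusted p = 4.39e-05) and Bbs5 at -0.93 ± 0.09 (adjusted p = 2.79e-05). Of the genes that rose, Ift52 had the largest value, 0.71 ± 0.16, and Ift43 had 0.55 ± 0.12. VC-T 1 had 98.5 CPM of Ift172, 26.9 of Bbs9 and 98.2 of Bbs5, close to the highest T library in each, and 6.41% of its spermatid cells lay in bins 11 to 13. With VC-T 1 kept, 0 of the 22 genes and no gene of the table were called. After matching on pseudotime, 1 of 20 genes was called lower (Ift172 at -0.81) and none higher, against 3.68% and 1.51% of all genes. Bbs9 was then at 0.42 (adjusted p = 0.323), the opposite sign. The 4 late spermatid transcripts were still called lower after this matching too.

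In spermatocyte-like cells 0 of the 21 genes tested were called in T against UC by edgeR, with 4 at an unadjusted p under 0.05, and DESeq2 called 2 lower. Of all genes, edgeR called 0.604% higher and 1.33% lower, and DESeq2 1.55% and 5.96%. Ift43 had the smallest p among the negative values, with a log2 fold change of -0.24 (adjusted p = 0.0615), and Ift81 among the positive ones, with 0.20 (adjusted p = 0.245). Ift172 had 86 to 93 CPM in T, against 253 in UC 1 and 127 and 114 in the other UC libraries. Without UC 1, 1 gene was called lower, against 578 of the 12609 genes tested. In T against VC-T, 0 of 22 genes were called by edgeR (8 at an unadjusted p under 0.05) and 0 by DESeq2, with 5.94% of all genes called higher and 7.68% lower. There Ift88 had 0.31 (adjusted p = 0.0559) and Ift20 -0.29 (adjusted p = 0.0633).

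Whether the T against UC effect differed between the classes was tested as an interaction term over both. It was more positive in spermatid-like than in spermatocyte-like cells for 5 of the 22 genes (Ift22, Ift46, Ift52, Ift74 and Ift43) and more negative for 2 (Ift172 and Bbs9), against 5.41% and 2.9% of all genes. Past 1 on the log2 scale were Ift52 upward (0.833% of all genes) and Ift172 and Bbs9 downward (2.49%). The difference was 1.02 ± 0.15 for Ift52 (adjusted p = 0.0203), -1.63 ± 0.36 for Ift172 (adjusted p = 0.0427) and -1.15 ± 0.19 for Bbs9 (adjusted p = 0.024). The median difference was 0.40 over the 22 genes and 0.21 over all genes. None was called after matching on pseudotime, where 0.859% of all genes were called higher and 0.777% lower. Without T 2, T 3 or UC 3 none was called either, nor any other gene of the table. Without T 1 or UC 2, 1 was called, downward, against 142 and 220 genes of the table called downward.

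In spermatogonia-like cells, where 18 of the 22 genes passed the filter on low counts, 1 gene fell and 1 rose in T against UC. Ift172 had 48.5, 46.2 and 47.2 CPM in T and 60.2, 112.4 and 128.1 in UC, a log2 fold change of -1.02 ± 0.24 (adjusted p = 0.00939). Ift43, the smallest IFT-A subunit, had 199.9, 111.5 and 146.5 CPM in T and 110.4, 95.3 and 94.6 in UC, a log2 fold change of 0.83 ± 0.22 (adjusted p = 0.0195), with T 2 only just above UC 1. Of all genes, 5.87% were called higher, 6.19% lower and 2.81% lower by over 1 on the log2 scale. Prm1, which spermatogonia do not transcribe, had 28.8 to 149.0 CPM in these cells of T and 3043 to 4036 in UC, and its part in the Ift172 value was not tested. Spermatogonia-like cells of T came mostly from cluster 18 (834 cells, against 50 of cluster 23), those of UC from both (298 and 213). Within the larger cluster only 1 IFT or BBS gene was called, higher, against 347 higher and 111 lower of 7263 genes tested. Ift172 was not called without UC 3 (adjusted p = 0.101). Ift43 was not called without T 1 or UC 2.

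In T against VC-T, 3 of the 19 genes tested rose in spermatogonia-like cells and 0 fell, all 3 by over 1 on the log2 scale. Ift140 had 47.4, 55.8 and 64.6 CPM in T and 27.4 and 27.9 in VC-T 2 and VC-T 3 (1.17 ± 0.29, adjusted p = 0.00835), Ift43 had 80.8 and 92.6 in the latter (1.05 ± 0.23, adjusted p = 0.00385), and Ift27, a small GTPase of IFT-B, rose by 1.39 ± 0.41 (adjusted p = 0.0271). Of all genes, 7.9% were called higher, 3.95% lower and 6.71% higher by over 1. Among genes with negative values none was called by DESeq2 either, which called 1 gene higher, against 1.75% of all genes lower and 3.31% higher. VC-T 1 lay with T: it had 65.1 CPM of Ift140, 189.9 of Ift43 and 31.2 of Ift27. None was called with VC-T 1 kept, where no gene of the 9179 tested was called either. None was called without VC-T 2, where 207 genes were higher and 190 lower of 10494 tested.

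At 6 wk after the last dose, the called log2 fold changes of R against UC in spermatid-like cells lay between -0.39 (Ift172 and Ift43) and 0.80 (Bbs1). In R against UC, which shares its control libraries with T against UC, 7 of the 22 genes were higher (Ift80, Ift122, Ift140, Bbs1, Bbs2, Bbs4 and Bbs9) and 6 lower (Ift22, Ift27, Ift57, Ift172, Ift43 and Bbs5), none by over 1 on the log2 scale, against 20.4% and 18.6% of all genes. By role, 4 of 6 BBSome genes rose and 1 fell, 1 of 11 IFT-B genes rose and 4 fell, and 2 of 3 IFT-A genes rose and 1 fell. Bbs9, which was lower in T, had 84.7, 71.2 and 75.2 CPM in R against 50.1, 58.7 and 52.5 in UC, a log2 fold change of 0.57 ± 0.10 (adjusted p = 8.9e-05). Bbs1, a BBSome subunit that was sparsely counted, had 24, 47 and 97 UMIs in R and 7, 5 and 14 in UC, or 2.73, 4.18 and 3.80 CPM against 2.37, 1.40 and 2.61 (0.80 ± 0.31, adjusted p = 0.0416). Bbs4, which was sparse too, had 9.88, 12.9 and 10.9 CPM in R and 8.12, 5.31 and 10.1 in UC, so that the groups overlapped (0.54 ± 0.20, adjusted p = 0.0323).

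Ift43 had the smallest adjusted p among the genes that were lower in R, with 314.2, 354.6 and 312.5 CPM against 453.5, 431.0 and 454.0 in UC (-0.39 ± 0.08, adjusted p = 4.7e-04). Ift172 had 353.7, 327.1 and 294.3 CPM in R, each below the lowest UC library, 380.9 (-0.39 ± 0.10, adjusted p = 0.00196). Bbs5 had 149.0, 142.0 and 134.1 CPM in R, also below the lowest UC library, 165.9 (-0.35 ± 0.09, adjusted p = 0.00306). The Prm1 levels of the class were 12405 to 14957 CPM in R and 11462 to 14988 in UC. In group R, 62.1 to 69.6% of the spermatid cells lay in bins 11 to 13, and 77.0% of the spermatid-like cells belonged to 4 clusters with medians of 1289 to 1766 UMIs per cell (clusters 14, 16, 17 and 19), which held 15.0% in UC. After matching on pseudotime 8 genes were higher (Bbs2, Bbs4, Bbs9, Ift46, Ift52, Ift88, Ift122 and Ift140) and 2 lower, Ift172 at -0.76 (adjusted p = 6.05e-10) and Bbs5 at -0.62 (adjusted p = 1.27e-07), against 19.4% and 20.7% of all genes. Of the 4 late spermatid transcripts, 2 were called lower before matching and 4 after it. Their part in the matched Ift172 and Bbs5 values was not tested. Within bin 12 the Ift172 levels of R were 423.6, 483.6 and 377.2 CPM, all below the lowest UC library, 557.9. With library size alone, which moved the median of all genes from 0.04 to 0.25, 10 genes were higher and 1 lower, against 32.9% and 6.16% of all genes. The count of calls was 5 without R 3, 6 without UC 1 and 8 without UC 2. The whole table then had 2072 genes called higher and 1840 lower, 2329 and 2152, and 2539 and 2302, in that order.

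**Figure D5:**
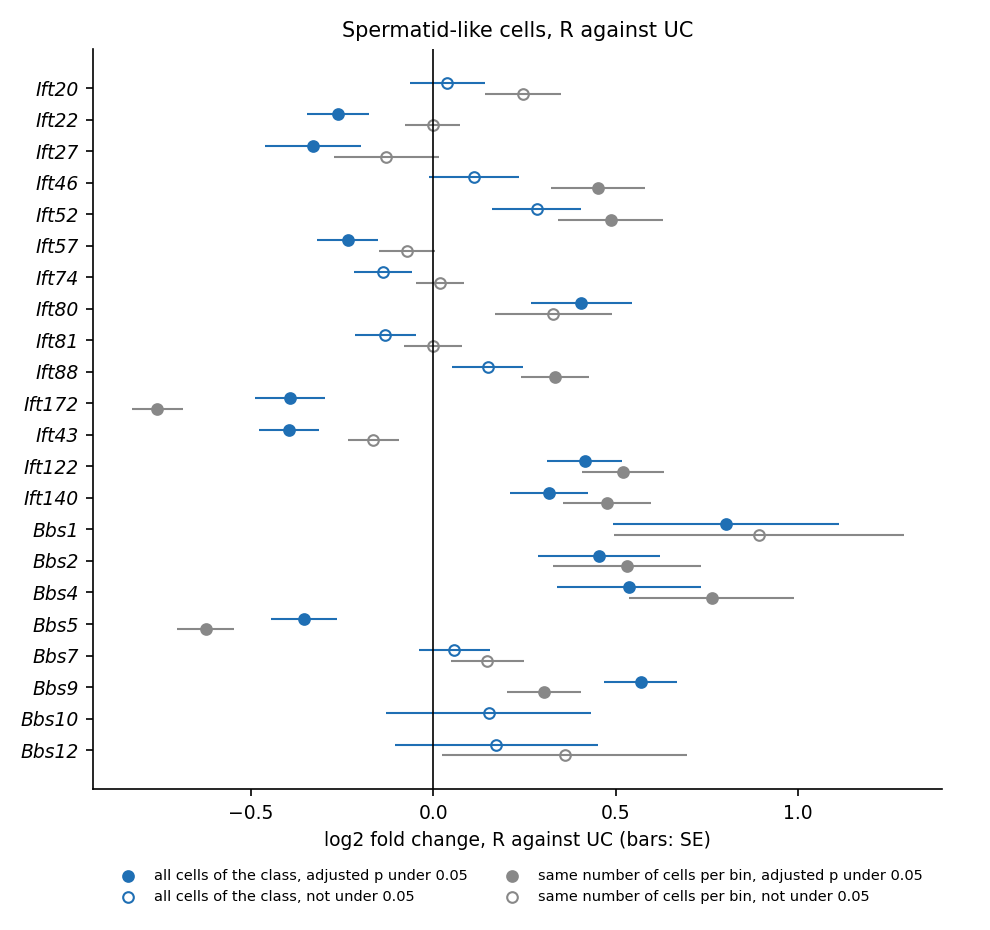
Log2 fold change of R against UC in spermatid-like cells (x axis) of the 22 genes (y axis) with standard errors, over all cells of the class and over cells matched on pseudotime, with filled symbols for an adjusted p under 0.05. Bbs9 lies at 0.57 over all cells and Ift172 at -0.39, and after matching Ift172 lies at -0.76.

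Against VC-R, 2 genes were higher and 3 lower in spermatid-like cells of R, where 14.8% of all genes were called higher and 10.6% lower. Bbs9 had 56.1, 55.2 and 56.3 CPM in VC-R (0.51 ± 0.11, adjusted p = 0.00484). Bbs1 had 1.62, 1.16 and 1.85 CPM there, from 6 UMIs in each library (1.34 ± 0.34, adjusted p = 0.0125), and it alone passed 1 on the log2 scale, as 5.42% of all genes did upward. Ift172 (-0.34 ± 0.10, adjusted p = 0.0259), Ift22 (-0.27, adjusted p = 0.0465) and Ift27 (-0.39, adjusted p = 0.0452) were lower. With library size alone 4 genes were higher and 0 lower, against 22.8% and 1.88% of all genes. After matching on pseudotime 4 were higher (Bbs1, Ift46, Ift52 and Ift88) and 2 lower (Ift172 at -0.54 and Bbs5 at -0.39), against 9.38% and 11.2% of all genes. Of the 4 late spermatid transcripts, 0 were called before this matching and 2, both lower, after it. The 4 clusters that held 77.0% of the class in R held 13.7% in VC-R, and bins 11 to 13 held 45.2 to 51.1% of the spermatid cells of VC-R. The count of calls was 14 without VC-R 1, 1 or 2 without any other single library, and 0 among cells with at least 2000 UMIs. Over all genes, 3447 of 15893 were called higher and 3100 lower without VC-R 1, and 758 and 132 of 15969 without VC-R 2.

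In spermatozoa-like cells, 20 of the 22 genes were tested in R against UC, and 2 were higher and 1 lower, against 5.44% and 3.2% of all genes. Ift43 had 51.7, 48.8 and 59.4 CPM in R and 38.1, 31.2 and 45.7 in UC (0.44 ± 0.10, adjusted p = 0.00402). Ift74 had 111.2, 107.6 and 130.6 CPM in R and 101.8, 98.97 and 88.9 in UC (0.25 ± 0.08, adjusted p = 0.0436). Ift57 had 62.5, 63.6 and 57.4 CPM in R and 72.9, 72.8 and 71.0 in UC (-0.27 ± 0.08, adjusted p = 0.028). The groups did not overlap in these 3 genes, which were called in the same libraries, so this is no further support. None of the IFT and BBS genes was called without R 3, where 351 genes of the table were higher and 122 lower. The same held without UC 2, with 377 and 158 genes of the table. Without R 1 or UC 1, 1 was called, and with library size alone 3 were higher and 0 lower, against 6.43% and 1.33% of all genes. Ift172, the gene that is highest in these cells, had 1273, 1278 and 1216 CPM in R and 1389, 1561 and 1327 in UC and was not called. Against VC-R, 0 of 19 genes were called by edgeR, with 5 at an unadjusted p under 0.05, and 0 by DESeq2. Of all genes, edgeR called 0% in either direction and DESeq2 3 genes in each. Ift43 had the smallest p there, with 0.54 (adjusted p = 0.11).

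In spermatogonia-like cells of R against UC, 3 of the 21 genes tested rose and 0 fell, against 6.31% and 4.55% of all genes. Ift22, a small GTPase-like IFT-B subunit, had 90.6, 94.8 and 107.0 CPM in R and 25.1, 63.5 and 53.9 in UC (0.89 ± 0.21, adjusted p = 0.00833). Ift122 had 90.6, 114.5 and 112.7 CPM in R and 70.3, 58.7 and 67.0 in UC (0.69 ± 0.19, adjusted p = 0.0182). Ift172 had 151.5, 197.0 and 153.7 CPM in R and 60.2, 112.4 and 128.1 in UC (0.56 ± 0.18, adjusted p = 0.0434). The groups did not overlap in these 3 genes, which were called in the same libraries, so this is no further support. Prm1 was higher in these cells of R as well, with 5796 to 8115 CPM, and its part was not tested. Counts of calls were 1 without R 2 or UC 2 and 5 without R 1. The whole table had 309 genes higher and 223 lower without R 2, 122 and 117 without UC 2, and 825 and 566 without R 1. Within cluster 18 alone no IFT or BBS gene was called, against 37 higher and 3 lower of 6404 genes tested. Ift122 was at -0.092 there (adjusted p = 0.978) and Ift172 at 0.60 (adjusted p = 0.345). That cluster held 226 spermatogonia-like cells of R, against 341 in cluster 23, and 298 of UC, against 213. Against VC-R, 0 of 20 genes were called by edgeR, with 3 at an unadjusted p under 0.05, and 0 by DESeq2, with 0% of all genes called. Ift172 had the smallest p there (0.88, adjusted p = 0.382).

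In spermatocyte-like cells of R against UC, 0 of 22 genes were called by edgeR (2 at an unadjusted p under 0.05) and DESeq2 called 1 lower. Of all genes, edgeR called 0% higher and 0.00749% lower, and DESeq2 0.314% and 1.93%. Ift43 had the smallest p (-0.17, adjusted p = 0.483), and Bbs7 the smallest among positive values (0.10). Against VC-R, 0 of 22 were called by edgeR or DESeq2 and 0 had an unadjusted p under 0.05, with 0% of all genes called. The log2 fold change there was 0.16 in Bbs9 and -0.16 in Ift20.

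A further 33 genes of the pathway, in 5 lists of IFT subunits and BBS genes under other symbols, motors, ciliary transcription factors and other cilium transport genes, were followed in the same fits. In spermatid-like cells of T against UC, 14 of the 31 tested rose and 1 fell, against 24.1% and 28.2% of all genes. After matching on pseudotime 2 of 28 were called higher (Rfx4 and Arl13b) and 1, Kifap3, lower, against 6.78% and 10.4% of all genes. Kif3b, a motor subunit of the IFT kinesin, rose by 0.59 on the log2 scale (adjusted p = 2.6e-05), whereas Kifap3, the adaptor subunit of the same motor, fell by 0.50 (adjusted p = 2.86e-05). Lztfl1, a regulator of the BBSome, rose by 0.56 (adjusted p = 3.89e-05), the small GTPases Arl13b by 0.49 (adjusted p = 9.81e-05) and Arl3 by 0.42 (adjusted p = 2.15e-04), and the IFT-A subunit Wdr35 by 0.64 (adjusted p = 1.04e-04). In R against UC, 4 of 31 rose and 9 fell, against 20.4% and 18.6% of all genes. After matching, 9 of 30 were higher and 4 lower, against 19.4% and 20.7% of all genes. Rfx3, a transcription factor of ciliary genes, rose by 0.89 (adjusted p = 2.98e-07), Dync2h1, the heavy chain of the IFT dynein, by 0.74 (adjusted p = 1.76e-05), and the BBSome subunit Ttc8 by 1.41 (adjusted p = 0.00305), with Ttc21b at 0.28. Of the 9 that fell, Tctex1d2, a light chain of the dynein, fell by 0.43 (adjusted p = 1.6e-04), Kifap3 by 0.43 (adjusted p = 1.7e-04), Arl13b by 0.29, Dync2li1 by 0.39 and Kif3a by 0.30. In spermatocyte-like cells edgeR called 0 of the 33 in T against UC (4 at an unadjusted p under 0.05, and DESeq2 called 1, Bbip1, at -0.26) and 0 in R against UC (1 at an unadjusted p under 0.05, and 0 by DESeq2).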

How the data were processed

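Libraries were made with droplet-based 3′ chemistry, and the authors deposited filtered matrices of UMI counts per gene and barcode. The submitters' processing notes name Cell Ranger 3.0.0, whereas the matrix headers name a later version, and it is not given in the sources used here whether intronic reads were counted. Total UMI counts per library are given above. Ambient RNA was not corrected here, whereas the study's own analysis used SoupX. P-values measure the spread between 3 mice (2 in VC-T), and the counts set the precision of sparse genes.

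Barcodes were kept from 500 genes and 1000 UMIs upward if mitochondrial UMIs made up no more than 30%, and the 5.4% with the highest doublet scores (Scrublet as implemented in scanpy 1.11.5) were removed. Cells were clustered (2000 variable genes without the 22 genes, 30 components, 20 neighbours, Leiden resolution 1.2) and named from marker lists, and cells of unnamed clusters were left out. The largest unnamed cluster, 15, was led by Gm4665, Prm1, Cby3 and Tnp1. Of its 2548 cells, 1677 were of R, 496 of VC-R, 211 of UC, 146 of VC-T and 18 of T. How leaving them out bears on the R comparisons was not tested. UMIs were summed per library and class (at least 10 cells) and tested with edgeR 4.0.16 (quasi-likelihood, TMM, filterByExpr, Benjamini-Hochberg over all genes tested), using only the groups compared. The numbers of the libraries were checked for pairing by the correlation of their deviations from the group means. The scripts were tested on simulated data. The genes, lists and tests were chosen with earlier results of these data known. All members called are named, with full values for up to 5 per direction by adjusted p, values per library for up to 3 per direction by fold change, and, where none was called, the smallest p. DESeq2 1.42.0, library size alone, no filter, matching on pseudotime, cells with at least 2000 UMIs, Leiden resolution 0.8, all groups in 1 fit, a replicate block and leaving out each library were alternatives. Restriction to the largest spermatogonia-like cluster was chosen after seeing the data. 7 of the 22 genes overlap a gene on the opposite strand (Bbs4, Bbs12, Ift57, Ift74, Ift81, Ift88 and Ift140), and whether counting used strand is not given in the sources used here.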

Additional observations from a re-analysis of the deposited data

Results flagged for a closer look

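The T against UC effect of 7 genes differed between spermatid-like and spermatocyte-like cells by the interaction test of edgeR (Benjamini-Hochberg adjustment over all genes tested). The log2 difference, spermatid-like minus spermatocyte-like, was 0.46 for Ift22, 0.89 for Ift46, 1.02 for Ift52, 0.41 for Ift74 and 0.58 for Ift43, all more positive in spermatid-like cells. It was -1.63 for Ift172 and -1.15 for Bbs9, more negative in spermatid-like cells. The adjusted p lay between 0.0203 (Ift52 and Ift43) and 0.0432 (Ift46). After matching on pseudotime the differences were -0.46 for Ift172 (adjusted p = 0.18) and -0.22 for Bbs9 (adjusted p = 0.68), and none of the 7 was called. Matching also thinned the spermatid-like cells to 365 per library, and over all genes it left 0.859% called higher and 0.777% lower. Of the spermatid cells, 9.79 to 14.2% of T lay in bins 11 to 13, against 50.7 to 55.5% in UC. The part of this in the differences was not tested, since matching changes both the makeup and the number of cells. UC 1 had the highest Ift172 level of the UC libraries in spermatocyte-like cells (253 CPM), and without UC 1 the test called 9 IFT and BBS genes. Of the 15696 genes tested there, 1265 were called higher and 1451 lower.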

How the results depend on the processing

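Of the 58 called values of single genes, DESeq2 kept 38 past the threshold, library size alone 49, cells with at least 2000 UMIs 36 and matching on pseudotime 14, with 38 lost and 6 of opposite sign, none of which was called. The 6 were Ift43 (-0.16), Ift22 (-0.072) and Ift140 (-0.14) in T against UC and Ift43 (-0.0093), Ift140 (-0.12) and Bbs9 (0.42) in T against VC-T, all in spermatid-like cells. Ift122 in spermatogonia-like cells of R against UC was at -0.088 with Leiden resolution 0.8 and at -0.092 within the largest cluster. Ift172 was called lower in spermatid-like cells of T against UC and against VC-T under each alternative run except with VC-T 1 kept (-2.19, adjusted p = 0.116).

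Counts of called genes moved as follows in spermatid-like cells. They are counts of the IFT and BBS genes alone, and the number of all genes called changed between settings too. In T against VC-T, library size alone called 35.5% of all genes higher and 19.6% lower, where the main fit called 17% and 26%. For T against UC, 12, it was 2 after matching. For T against VC-T, 10, it was 0 with VC-T 1 kept, 17 with library size alone and 1 after matching. For R against UC, 13, it was 7 with DESeq2 and 4 among cells with at least 2000 UMIs, with 5 to 11 over the left-out libraries. For R against VC-R, 5, it was 1 with Leiden resolution 0.8, 0 among cells with at least 2000 UMIs, 2 with the replicate block and 1 to 14 over the left-out libraries. For the difference between the classes, 7, it was 4 with DESeq2, 2 with Leiden resolution 0.8, 3 among cells with at least 2000 UMIs, 0 after matching, 2 without a filter and 0 to 9 over the left-out libraries.

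In spermatocyte-like cells, with 0 calls, R against UC gave 1 with DESeq2. T against UC gave 2 with DESeq2, 2 with all groups in 1 fit, 1 among cells with at least 2000 UMIs, 2 after matching and 0 to 1 over the left-out libraries. T against VC-T gave 1 with all groups, 3 among cells with at least 2000 UMIs, 2 with library size alone, 1 after matching, 2 without a filter and 0 to 2 over the left-out libraries, with 1 without T 2 and 2 without VC-T 2. The number of all genes called changed between settings here too. After matching, 4.79% of all genes were higher and 6.7% lower in T against UC. In T against VC-T, 896 were higher and 871 lower of 12499 without T 2, and 257 and 659 of 14715 without VC-T 2.

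In spermatogonia-like cells, R against UC, 3, gave 1 with DESeq2, 0 with Leiden resolution 0.8, 0 with all groups, 1 among cells with at least 2000 UMIs, 0 in the largest cluster, 5 with library size alone, 1 after matching and 1 to 5 over the left-out libraries. R against VC-R, 0, gave 1 without a filter and 0 to 1 over the left-out libraries, with 1 without VC-R 1. Of all 9156 genes tested without VC-R 1, 512 were called higher and 294 lower, against 0 in the main fit. T against UC, 2, gave 1 with DESeq2, 1 with Leiden resolution 0.8, 1 in the largest cluster, 0 after matching and 1 to 3 over the left-out libraries. T against VC-T, 3, gave 1 with DESeq2, 0 with VC-T 1 kept, 5 among cells with at least 2000 UMIs and 0 to 4 over the left-out libraries. In spermatozoa-like cells, R against UC, 3, gave 0 with all groups, 5 with the replicate block and 0 to 3 over the left-out libraries. R against VC-R, 0, gave 2 without a filter, 1 with the replicate block and 0 to 3 over the left-out libraries, with 3 without VC-R 1. Of all 13200 genes tested without VC-R 1, 674 were called higher and 756 lower, against 0 in the main fit. With the replicate block 96 were higher and 5 lower of 12054. In these classes too, counts of all genes called changed between settings.

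The libraries share only a number (correlations of same-numbered libraries from -0.47 to 0.68, with no comparison in which every pair exceeded 0.1), and the replicate block moved no other count by over 1.5 times.

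Medians of the 22 genes also moved. With library size alone they were 0.56 for T against UC and 0.62 for T against VC-T in spermatid-like cells, and 0.10 and 0.13 in spermatocyte-like cells. For R against UC they were 0.34 in spermatid-like, 0.076 in spermatocyte-like and 0.031 in spermatozoa-like cells, and for R against VC-R 0.35, 0.044 and 0.20. After matching, the spermatid-like medians were 0.30 for R against UC, 0.052 for T against UC and 0.019 for T against VC-T. Among cells with at least 2000 UMIs the median was 0.18 for R against VC-R in spermatozoa-like cells and -0.038 for T against UC in spermatogonia-like cells. The causes were not tested.

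Sparse genes such as Bbs1, with 5 to 14 UMIs per UC library in spermatid-like cells, limit what these libraries can show.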
